A study of Neogale vison with 6 samples.

Results

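NF-κB is a family of transcription factors built from 5 DNA-binding subunits, and it is held in check by inhibitor proteins. The 10 genes described here are the subunits NFKB1, NFKB2, RELA, RELB and REL and the inhibitors NFKBIA, NFKBIB, NFKBIE, NFKBIZ and TNFAIP3. They were chosen by name, as the rows of the count table that carry these symbols. All 10 symbols were found among the 24526 genes of the table, and all 10 were among the 12148 genes that passed the filter on low counts.

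The RNA came from Mv1Lu cells, an epithelial cell line from mink lung. Cholesterol depletion (CD) was represented by 3 libraries, and cells left untreated (control) by another 3. CD meant 16 h with 50 μM lovastatin, a statin that blocks HMG-CoA reductase, together with 50 μM mevalonate, the product of that enzyme, in medium with 10% lipoprotein-deficient serum. The control labels name no treatment or change of serum, so the parts of the CD medium cannot be told apart.

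In resting cells, NF-κB dimers are kept in the cytoplasm by IκB proteins. Signals from receptors of TNF, interleukin-1 and microbial products activate the IKK kinases, which mark the IκB proteins for degradation and let the dimers enter the nucleus. NF-κB then drives genes of inflammation and survival, and several of its own subunits and inhibitors are among its known targets, so that the pathway carries built-in feedback.

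Of the 10 genes, 8 were higher in CD, none was lower and 2 did not pass the test (edgeR quasi-likelihood test, FDR under 0.05 over all genes tested). None was lower by DESeq2 or limma-voom either, nor by edgeR at an unadjusted p under 0.05. The background was wide, since 24.8% of all genes tested were called higher and 22.9% were called lower. The 8 genes were also those whose CD libraries all lay above all control libraries, a pattern seen in 29.5% of the genes tested. Of the 10 genes, 7 rose at least 2-fold, as did 10.6% of all genes tested. The median log2 fold change of the 10 genes was 1.32, against 0.06 over all genes tested. The inhibitors TNFAIP3 and NFKBIZ rose by far more than the other members, whereas NFKBIB and NFKBIE, also inhibitors, were the 2 genes without a call. In bulk RNA, a change per cell and a change in the share of cells of one kind cannot be told apart.

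The libraries held 13473820 to 18633764 reads counted on genes in the control and 14426841 to 16309954 in CD. Values are given below as CPM, reads of a gene per 1000000 reads counted on genes, with library sizes scaled by TMM. CD libraries varied more among themselves, with a biological coefficient of variation of 0.214 against 0.0838 in the control. The labels do not say whether the replicates were separate cultures, so the p-values measure the spread between these libraries, which may be technical. With 3 libraries against 3, an exact two-sided permutation test cannot give a p below 0.1, which was its value for each of the 8 genes called.

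**Figure D1:**
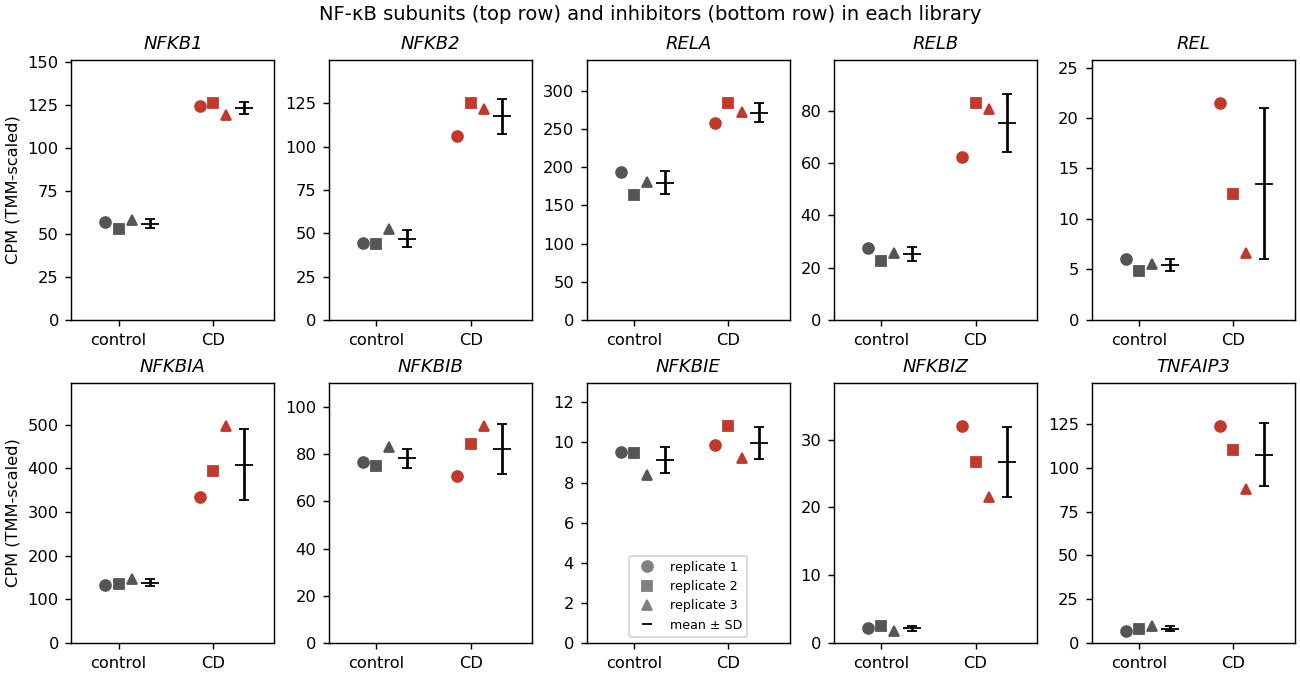
Level of each of the 10 genes in each library, in CPM on linear axes that start at 0, with subunits in the top row and inhibitors in the bottom row. Marker shapes are replicates and black bars are the mean ± SD (n = 3); the groups are apart in 8 panels and overlap in those of NFKBIB and NFKBIE, and the CD libraries of REL spread from 6.63 to 21.4 CPM.

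Among the subunits, NFKB1 and NFKB2 encode the precursors p105 and p100, whose C-terminal parts act as IκB-like inhibitors and which are processed to the DNA-binding p50 and p52. NFKB1 (ENSNVIG00000004801) stood at 56.7, 53.0 and 58.2 CPM in control replicates 1 to 3 and at 125, 126 and 119 CPM in CD replicates 1 to 3. The libraries within each group were close together, and the lowest CD library was 2.04 times the highest control library. NFKB1 rose 2.20-fold by edgeR (log2 fold change 1.14, SE 0.11, 95% interval 0.90 to 1.38, FDR 2.22e-05). NFKB2 (ENSNVIG00000017504) stood at 44.5, 43.6 and 52.5 CPM in the control and at 106, 125 and 121 CPM in CD. All 3 CD libraries were again above all control libraries, at 117 ± 9.98 CPM on average against 46.8 ± 4.88 (SD, n = 3). The rise of NFKB2 was 2.51-fold (log2 fold change 1.33, SE 0.13, 95% interval 1.04 to 1.61, edgeR FDR 2.43e-05).

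RELA, RELB and REL carry the transactivation domain that p50 and p52 lack. RELA (ENSNVIG00000015668), which encodes p65, the subunit of the most common dimer, stood at 194, 164 and 180 CPM in the control and at 258, 283 and 272 CPM in CD. The groups did not overlap, but the change was the smallest of the 8 that passed the test, at 1.51-fold (log2 fold change 0.60, SE 0.11, 95% interval 0.35 to 0.84, edgeR FDR 0.00149). Of all genes tested, 78.2% had a lower log2 fold change than RELA. RELB (ENSNVIG00000007731), the partner of p52 in the non-canonical pathway, stood at 27.5, 22.4 and 25.6 CPM in the control and at 62.4, 82.8 and 80.8 CPM in CD. CD replicate 1 was the lowest of its group, still well above the control. RELB had the highest estimated fold change among the subunits, at 2.99-fold (log2 fold change 1.58, SE 0.15, 95% interval 1.24 to 1.92, edgeR FDR 2.38e-05). Without CD replicate 3, REL was above it (log2 fold change 1.60 against 1.49).

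REL (ENSNVIG00000012402) encodes c-Rel, a subunit best known from lymphocytes. It stood at 6.02, 4.84 and 5.51 CPM in the control and at 21.4, 12.5 and 6.63 CPM in CD. The control libraries were close together, but the CD libraries were not, and CD replicate 3 was only 1.10 times the highest control library. The highest CD library was 3.24 times the lowest, a spread at least matched in CD by 2.42% of the genes tested. REL passed the test with a wide interval (2.48-fold, log2 fold change 1.31, SE 0.36, 95% interval 0.51 to 2.11, edgeR FDR 0.0130). It was the one called member that lost its call in other settings. Without control replicate 2 the FDR was 0.0587, and without control replicate 3 it was 0.0532, while without CD replicate 1 the log2 fold change was 0.82 (FDR 0.0270) and without CD replicate 3 it was 1.60 (FDR 2.65e-09).

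The inhibitors divided into 3 that rose and 2 that did not pass the test. NFKBIA (ENSNVIG00000002189) encodes IκBα, the inhibitor that NF-κB is best known to resynthesise after activation. It stood at 132, 135 and 147 CPM in the control and at 334, 394 and 496 CPM in CD. Here CD replicate 3 was the highest library, and all CD libraries were above the control. NFKBIA rose 2.96-fold (log2 fold change 1.56, SE 0.15, 95% interval 1.23 to 1.90, edgeR FDR 2.53e-05).

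NFKBIB and NFKBIE encode IκBβ and IκBε, the other classical cytoplasmic inhibitors. NFKBIB (ENSNVIG00000010016) stood at 76.7, 75.1 and 82.9 CPM in the control and at 70.7, 84.2 and 91.7 CPM in CD, and the groups overlapped. Its log2 fold change of 0.071 (SE 0.13) had a 95% interval of -0.21 to 0.36 (edgeR FDR 0.67), and the exact two-sided permutation p was 0.6. NFKBIE (ENSNVIG00000009421) stood at 9.53, 9.47 and 8.37 CPM in the control and at 9.89, 10.8 and 9.22 CPM in CD, with overlap too. Its log2 fold change of 0.13 (SE 0.17) had a 95% interval of -0.24 to 0.51 (edgeR FDR 0.55; exact permutation p of 0.3). The upper ends of both intervals lie below the lower end of that of NFKBIA. A missed threshold does not show that the levels were equal.

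NFKBIZ (ENSNVIG00000017926) encodes IκBζ, an inducible IκB-like protein of the nucleus that can also act as a coactivator. It stood at 2.22, 2.46 and 1.76 CPM in the control and at 32.0, 26.7 and 21.5 CPM in CD, from 31, 34 and 32 reads against 520, 435 and 299 reads. Even the lowest CD library was 8.76 times the highest control library. The rise was 12.5-fold (log2 fold change 3.64, SE 0.23, 95% interval 3.14 to 4.15, edgeR FDR 1.58e-06). TNFAIP3 (ENSNVIG00000019197) encodes a ubiquitin-editing enzyme that shuts off signalling upstream of the IKK kinases. It stood at 6.81, 8.17 and 9.75 CPM in the control and at 124, 110 and 88.1 CPM in CD. The lowest CD library was 9.03 times the highest control library, the widest gap among the members. TNFAIP3 rose 13.0-fold (log2 fold change 3.70, SE 0.19, 95% interval 3.28 to 4.11, edgeR FDR 4.71e-07). By log2 fold change TNFAIP3 was at rank 73 and NFKBIZ at rank 76 from the top of the 12148 genes tested.

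**Figure D2:**
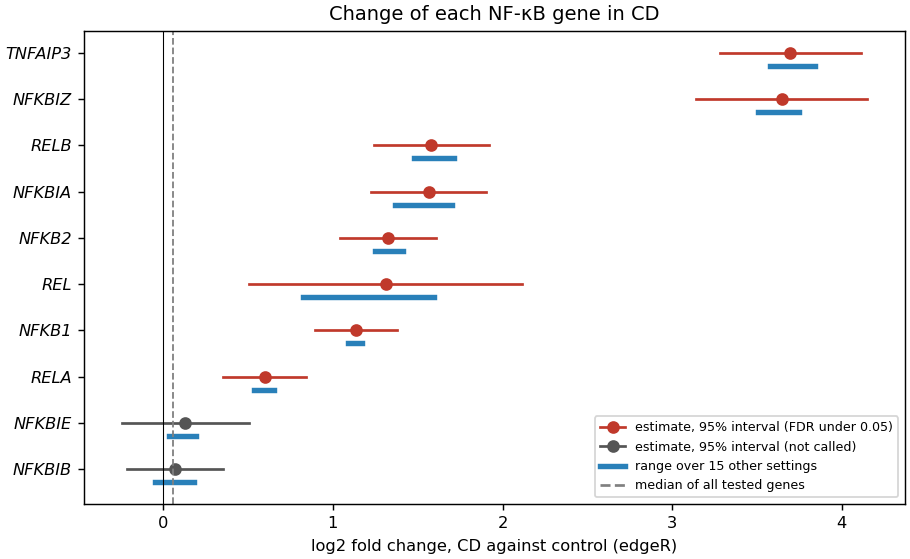
Log2 fold change of each gene, CD against control, with its 95% interval from edgeR (points and thin lines) and the range of the estimate over 15 other settings (thick blue lines). The intervals of TNFAIP3 and NFKBIZ, from 3.14 upward, lie above those of all other members, and the intervals of NFKBIB and NFKBIE span 0.

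The order of the CD libraries was not the same from gene to gene. CD replicate 3 was the lowest CD library for 5 members, NFKB1, REL, NFKBIE, NFKBIZ and TNFAIP3. CD replicate 1 was the lowest for the other 5, NFKB2, RELA, RELB, NFKBIA and NFKBIB. On the log2 scale, CD replicate 1 was above CD replicate 3 by 1.69 for REL, 0.57 for NFKBIZ and 0.49 for TNFAIP3. The same difference was -0.57 for NFKBIA and -0.37 for both RELB and NFKBIB.

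Relations between members were also read within each library, as reads of one gene per 100 reads of RELA, a measure that no scaling of libraries can change. These ratios were chosen after the members' values had been seen, and a ratio of reads depends on transcript length, so only its change between groups is described. For NFKBIA the ratio was 67.9, 82.4 and 81.5 in the control and 129, 139 and 182 in CD. For NFKBIB it was 39.6, 45.8 and 46.0 in the control and 27.4, 29.7 and 33.7 in CD, so that here the CD libraries all lay below the control. NFKBIE showed the same order, with 5.11 ± 0.591 reads per 100 reads of RELA in the control and 3.67 ± 0.252 in CD (SD, n = 3). RELA itself rose 1.51-fold, so a gene whose own level did not change falls by this measure.

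TNFAIP3 went from 4.63 ± 0.995 to 39.7 ± 7.81 reads per 100 reads of RELA, and RELB from 14.0 ± 0.308 to 27.7 ± 3.05 (SD, n = 3). Each of these 5 ratios separated the groups without overlap (exact two-sided permutation p of 0.1, the smallest possible). Since the ratios were chosen with the values known, this p is a description. The ratio of REL to RELA overlapped between groups, at 3.04 ± 0.0770 against 5.04 ± 2.99 (exact permutation p of 0.4, n = 3). The ratio of NFKB2 to NFKB1 also overlapped, at 83.6 ± 5.94 against 95.4 ± 9.01 reads per 100 (exact permutation p of 0.2, n = 3).

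**Figure D3:**
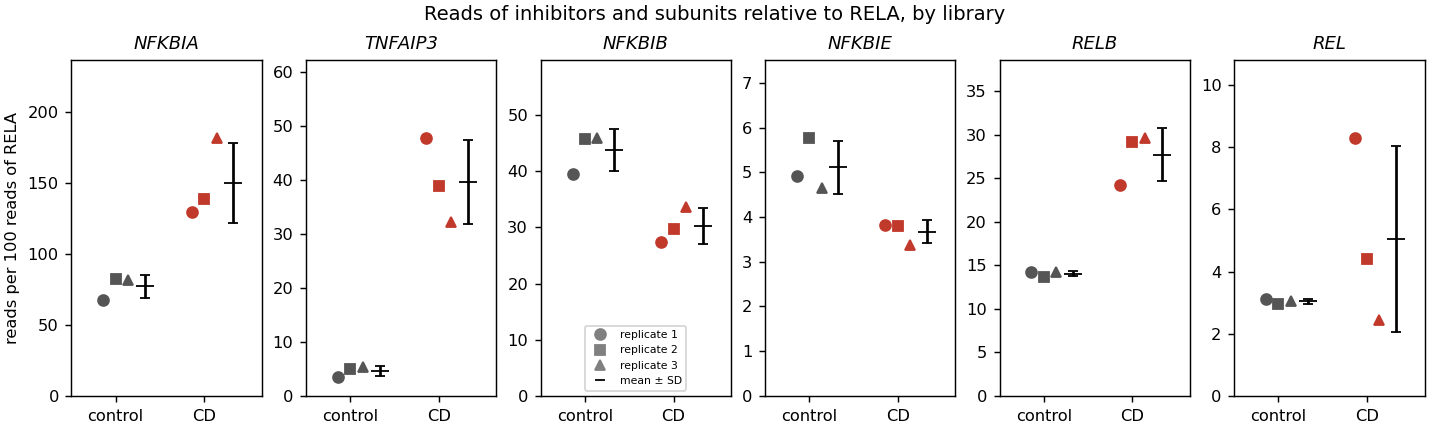
Reads of 6 genes per 100 reads of RELA in each library, on linear axes that start at 0, with mean ± SD (n = 3). NFKBIA, TNFAIP3 and RELB lie higher in every CD library than in any control library, NFKBIB and NFKBIE lie lower, and REL overlaps. The denominator, RELA, was itself higher in CD.

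The rest of the pathway was read from 4 lists of genes by role, written from general knowledge of the pathway but with earlier results of these data known, so that their counts are a description. Each count is set beside the 24.8% of all genes tested that were called higher and the 22.9% called lower. Upstream of the members, 29 of 33 listed ligands and receptors were found, and 15 of these had enough reads to be tested. Genes not found, among them TNFRSF1B and IL1RAP, have no value here. Of the 15, 6 (40.0%) were called higher and 2 (13.3%) lower. With DESeq2, 4 (26.7%) were called higher, beside 23.6% of all genes. The median log2 fold change of the 15 was 0.05. Without CD replicate 3, 4 of 16 tested were called lower (25.0%, beside 29.2% of all genes). IL1A, the interleukin-1α cytokine, rose most, from 0.624 ± 0.292 to 8.95 ± 1.25 CPM (log2 fold change 3.78, SE 0.31, edgeR FDR 8.16e-06). The death receptor TNFRSF21 followed with a log2 fold change of 1.96 (SE 0.16, FDR 9.61e-06). IL18R1, a chain of the interleukin-18 receptor, was also called (1.19, SE 0.36, FDR 0.0211), from 20 reads in the control and 47 in CD, and lost its call in 4 of 14 other settings. On the low side were TNFRSF11A, the receptor RANK (-2.17, SE 0.27, FDR 1.18e-04), and TLR3, a sensor of double-stranded RNA (-1.39, SE 0.31, FDR 0.00422).

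Unlike IL1A, TNF and IL1B were barely counted. TNF had 0 reads in the control libraries and 5 in CD, and IL1B had 0 reads in all 6 libraries. Receptors of both were expressed. TNFRSF1A, the main TNF receptor, stood at 219 ± 12.9 CPM in the control and at 277 ± 33.7 in CD (log2 fold change 0.34, SE 0.12, edgeR FDR 0.0425), a call kept in 8 of 15 other settings. The interleukin-1 receptor IL1R1 rose from 12.5 ± 1.24 to 26.8 ± 7.06 CPM (1.10, SE 0.20, FDR 0.00143), and TLR2, a sensor of bacterial lipoproteins, from 54.7 ± 3.75 to 108 ± 5.34 CPM (0.98, SE 0.11, FDR 8.17e-05).

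Of the 29 genes listed for the IKK complex, its upstream kinases and its adaptors, 27 were found, and all 27 were tested. Of these, 10 (37.0%) were called higher and 4 (14.8%) lower. Their median log2 fold change was 0.33. Without control replicate 1 the number called higher was 6 (22.2%, beside 18.4% of all genes), and without control replicate 2 it was 6 as well (22.2% beside 19.4%), close to the background. Of the kinase complex itself, 1 of 3 subunits was called. Its catalytic subunit IKBKB stood at 67.4 ± 1.29 CPM in the control and 84.8 ± 4.70 in CD (log2 fold change 0.33, SE 0.11, edgeR FDR 0.0289), a call kept in 9 of 15 other settings. CHUK, the other catalytic subunit, had a log2 fold change of 0.22 (SE 0.18, FDR 0.34), and IKBKG, the regulatory subunit NEMO, had -0.27 (SE 0.29, FDR 0.48), so neither passed the test.

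MAP3K8, the kinase TPL2 that is bound by p105, rose from 1.61 ± 0.475 to 18.3 ± 0.845 CPM (log2 fold change 3.50, SE 0.23, edgeR FDR 2.18e-06). RIPK2, the kinase of the NOD receptors, and BCL10, an adaptor that links CARD proteins to IKK, had log2 fold changes of 2.02 (SE 0.21, FDR 4.45e-05) and 1.47 (SE 0.16, FDR 5.24e-05). The genes with the lowest fold changes included MAP3K14, the kinase NIK of the non-canonical pathway that leads to p52 and RELB. It fell from 20.2 ± 2.14 to 8.23 ± 0.441 CPM (-1.30, SE 0.16, FDR 1.38e-04), while NFKB2 and RELB, the subunits of that pathway, rose. The adaptors TRAF5 (-1.85, SE 0.40, FDR 0.00354, from 40 reads in the control and 11 in CD) and TRAF2 (-0.56, SE 0.13, FDR 0.00439) fell too.

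Among 23 other brakes and modifiers of NF-κB, 21 were found and 20 were tested. Of the 20, 9 (45.0%) were called higher and 2 (10.0%) lower. Their median log2 fold change was 0.43. Without CD replicate 3, 4 of 20 were called lower (20.0%, beside 29.2% of all genes). TNIP1, a binding partner of the TNFAIP3 protein, rose from 87.2 ± 7.20 to 300 ± 16.2 CPM (log2 fold change 1.78, SE 0.11, edgeR FDR 1.89e-06). Other list genes known to work alongside TNFAIP3 were named after their values were seen, so they form no count. TAX1BP1 was called higher by 1.12, RNF11 by 1.26 and ITCH by 0.79 on the log2 scale (edgeR). The deubiquitinase CYLD was called higher by 0.86 (FDR 0.00228). TNIP2, a relative of TNIP1, did not pass the test (-0.25, FDR 0.23), and TNIP3, with 1 read in the control and 2 in CD, was not tested. The highest change in the list was that of IRAK2, a kinase of interleukin-1 signalling (3.10, SE 0.21, FDR 2.72e-06), and PELI1, a ubiquitin ligase of the same route, rose by 1.61 (SE 0.23, FDR 3.21e-04).

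Its relative PELI2 fell by 1.80 on the log2 scale (SE 0.28, edgeR FDR 5.71e-04), and NLRC5, a NOD-like protein better known for MHC class I genes, fell by 1.75 (SE 0.37, FDR 0.00331) from 51 reads to 15. The IκB-like genes outside the 10 members did not pass the test. BCL3 stood at 33.8 ± 1.13 CPM in the control and at 33.6 ± 7.50 in CD (log2 fold change -0.0080, SE 0.17, FDR 0.97), and NFKBID at 11.1 ± 1.83 and 8.93 ± 1.39 CPM (-0.31, SE 0.20, FDR 0.23).

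Of 48 textbook target genes of NF-κB, 43 were found and 35 were tested. Of the 35, 24 (68.6%) were called higher and 5 (14.3%) lower. Their median log2 fold change was 0.91. The list includes SQSTM1, which the study followed on its own account as an autophagy gene. By estimate, the highest were 3 genes of leukocyte recruitment. The places of CXCL8 and SELE rest on 1 and 2 control reads, and CXCL5 (16.6-fold) and CCL5 (14.6-fold) were near, so this order is not settled. CCL20, a chemokine, rose from 38 to 818 reads in all (log2 fold change 4.43, SE 0.38, edgeR FDR 1.18e-05). The neutrophil chemokine CXCL8 had 1 read in the control and 103 in CD, a ratio of 102 after scaling with an exact Clopper-Pearson interval of 17.9 to 4062 for counting error (FDR 2.50e-05). The adhesion molecule SELE had 2 reads in the control and 61 in CD, a ratio of 30.2 with an interval of 8.0 to 255 (FDR 2.85e-04). Targets moved the other way too, with PSMB9, a subunit of the immunoproteasome, at -1.39 (SE 0.25, FDR 0.00128), the proteoglycan SDC4 at -1.21 (SE 0.16, FDR 1.76e-04) and EFNA1, an ephrin ligand, at -0.67 (SE 0.14, FDR 0.00291).

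**Figure D4:**
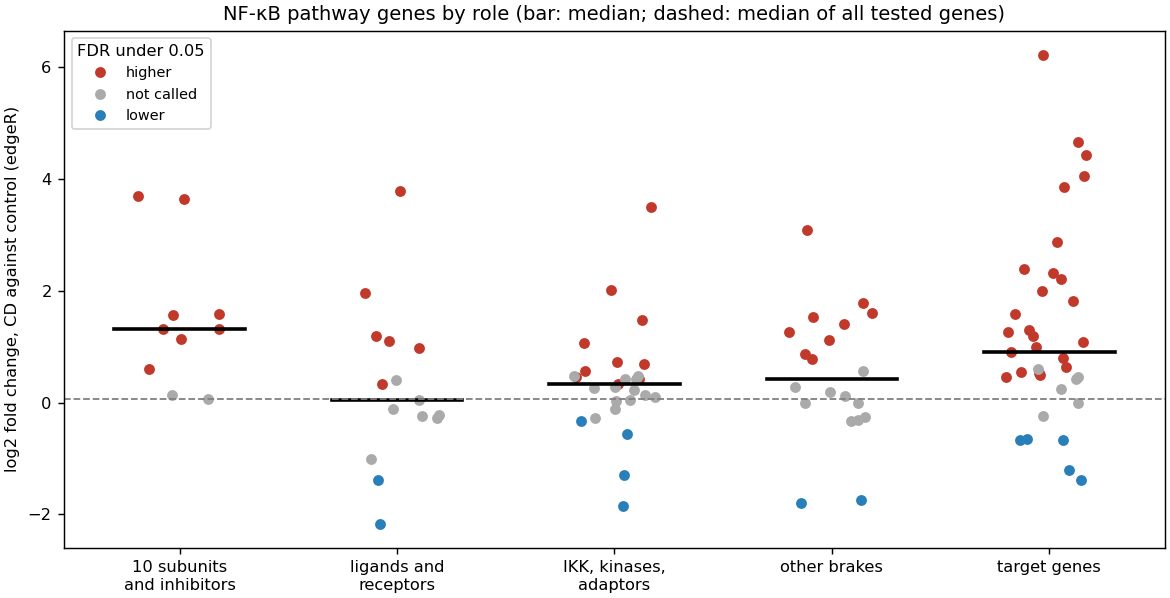
Log2 fold change, CD against control, of the 10 members and of the tested genes of 4 pathway lists, coloured by the edgeR call, with a bar at each median and a dashed line at the median of all genes tested (0.06). The medians are 1.32 for the members, 0.05 for ligands and receptors, 0.33 for IKK and its upstream genes, 0.43 for other brakes and 0.91 for target genes, and the topmost point is CXCL8, whose estimate rests on 1 control read.

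Leukocytes express many of these genes, so their markers were read in the same libraries. Of 7 leukocyte markers 6 were found, and they summed to 0.506 to 1.27 CPM in the control and to 3.89 to 5.04 CPM in CD, with CD14 and CSF1R called higher. The defining leukocyte gene PTPRC had 0 reads in the control and 1 in CD, and ITGAM had 1 and 0. Of 5 endothelial markers, TEK fell from 215 to 102 CPM and VWF rose from 5 to 56 reads (edgeR FDR 8.82e-04). PECAM1 had 0 reads in the control and 11 in CD, and CDH5 had 0 and 1. The list, carried by TEK, summed to 206 to 221 CPM in the control and 75.9 to 124 CPM in CD. As to the labelled epithelial type, KRT7 and KRT19 were abundant in the control (7126 and 936 CPM) and lower in CD (1256 and 458 CPM), whereas CDH1 had 8 reads in the control and 18 in CD and EPCAM had 7 and 2. CLDN4 was called higher, from 27 to 326 reads (edgeR FDR 9.61e-06). The 8 epithelial markers found, of 10, summed to 7932 to 8581 CPM in the control and 1683 to 2081 CPM in CD, most of it KRT7, and 1 was called higher and 2 lower. The 6 fibroblast markers summed to 303 to 379 CPM in the control and 179 to 228 CPM in CD. The sum was carried by the collagens COL1A1, COL1A2 and COL3A1, each called lower. LUM went the other way, from 7 to 35 reads, as did DCN, from 3 to 15 reads, and neither was tested. PDGFRA did not pass the test (edgeR FDR 0.92). What part these shifts have in the members' values was not tested.

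TNFAIP3, the called member with the largest estimate over all 6 libraries, was also compared with all tested genes by its pattern. NFKBIZ had the larger estimate without control replicate 1 (3.67 against 3.58) and without control replicate 2 (3.75 against 3.68). The 5 genes with symbols most like TNFAIP3, by Pearson r of log2 CPM, were HMGCS1, RALB, NDRG4, SLC8B1 and FASTKD5, with r between 0.9989 and 0.9996. In all, 1210 genes, or 9.96% of those tested, had r above 0.95. The libraries share one contrast, so the coefficients are a description.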

How the data were processed

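The authors deposited raw counts of reads per gene for 24526 genes in 6 libraries, after trimming with fastp 0.20.1 and alignment to a mink assembly with STAR 2.7.2a, per the labels and the study's methods. The counting program and its strand setting are not given in the sources used here, so overlapping and antisense genes are uncertain. Rows that name no gene held 29.3% to 47.2% of the reads of a library and were left out. The deposited normalized files, 6 in number, were not used, because their gene identifiers do not follow the order of their values. Columns in the count table that belong to no sample numbered 0.

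Counts were tested with edgeR 4.0.16 in R 4.3.3 (filterByExpr with minimum count 10 and minimum total count 15, TMM, glmQLFit with robust estimation, glmQLFTest, condition as the only term), with Benjamini-Hochberg adjustment over 12148 genes and a threshold of 0.05. The SE is the log2 fold change divided by the square root of F, and its median was 0.18. The procedure was tested on simulated data.

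Members were matched by symbol, and some list genes by older symbols or by identifier. The members and lists were chosen with earlier results of these data known. Named genes are all members and, from each list, at most 3 called genes from either end of the order by log2 fold change. IKK subunits, receptors, IκB-like genes and partners of TNFAIP3 were named for their roles after their values were seen, as were TNF and IL1B. Alternatives were DESeq2 1.42.0, limma-voom 3.58.1 with and without quality weights, other scalings, other filters, a replicate block, leaving out each library, and an FDR of 0.01 for counts of genes. No sequences or coordinates are given, since no reference of the authors' assembly was at hand.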

Additional observations from a re-analysis of the deposited data

How the results depend on the processing

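The 8 calls among the members were kept under 15 other settings, except that of REL (13 of 15), and NFKBIB and NFKBIE were called in none. The ranges of the log2 fold change were 1.09 to 1.17 for NFKB1, 1.25 to 1.41 for NFKB2, 0.53 to 0.65 for RELA, 1.48 to 1.71 for RELB, 0.82 to 1.60 for REL, 1.37 to 1.70 for NFKBIA, 3.51 to 3.75 for NFKBIZ and 3.58 to 3.84 for TNFAIP3. Values near 0 changed sign in some settings. With single libraries left out, NFKBIB ranged from -0.049 (without CD replicate 3) to 0.18, and IKBKG from -0.47 to 0.0012 (without CD replicate 3). BCL3 was at 0.15 with voom and quality weights, 0.022 with upper quartile scaling, 6.2e-04 with total count scaling, and between -0.20 and 0.16 over all settings, with 0.017 without control replicate 3 and 0.16 without CD replicate 1. The cause was not tested.

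At an FDR of 0.01, 2006 genes were higher and 2036 lower, against 3016 and 2784. Of the members, 7 were then higher, against 8, because the FDR of REL was 0.0130. Leaving out single libraries gave the following ranges. The IKK list had 6 to 14 genes called higher. The 6 came without control replicate 1 (22.2%, beside 18.4% of all genes) and without control replicate 2 (22.2% beside 19.4%). The 14 came without CD replicate 3 (51.9% beside 29.3%). The other brakes had 2 to 4 called lower and the ligands and receptors 2 to 4, while the share of all genes went from 17.8% to 29.2%. The 4 came without CD replicate 3 (20.0% and 25.0%, beside 29.2% of all genes). With a minimum of 50 counts, 1 brake was called lower (5.3%, beside 24.2% of all genes). The values of genes with few reads, such as CXCL8 and SELE, are limited by counting error.

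The labels give replicate numbers but do not say whether same-numbered libraries were handled as pairs. The deviations of same-numbered libraries from their group means had correlations of -0.020, -0.40 and -0.20. Deviations within a group cancel one another, so these values cannot decide whether the samples were paired. With the replicate block, 2772 genes were higher and 2636 lower, and the calls of all 10 members stayed the same.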
